A study of Homo sapiens with 4 samples.

Results

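S phase and DNA replication genes were followed in C14orf159 knockout cells of HCT116, a long-established line grown from a human colorectal carcinoma. The set held 44 genes that build, load or feed the DNA replication machinery, or are switched on for it. They were taken by gene symbol, and all 44 were among the 26255 genes listed per library. Each of them passed the minimum level, 1 FPKM or more in 2 or more libraries, which 12701 genes reached. FPKM counts fragments per kilobase of transcript, scaled to the depth of the library, so levels can be set side by side between genes.

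The study asked why C14orf159, the gene of a mitochondrial matrix protein now named DGLUCY, restrains migration, invasion and spheroid growth. RNA from 2 libraries of C14orf159 knockout cells (KO 1 and KO 2, in columns headed sgDGLUCY) was set against 2 libraries of controls whose label names an empty vector (EV controls 1 and 2, in columns headed AAVS1). All 4 libraries came from the same line with no other treatment named, and nothing says whether the replicates were separate cultures or clones, or pools of edited cells, so a p-value measures the spread of these 4 libraries alone, and that spread may be technical. AAVS1 is a site often used as a neutral target, and which of these names describes the controls was not settled.

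C14orf159 itself stood at 2.52 FPKM in KO 1 and at 10.8 FPKM in KO 2, against 16.2 and 16.4 FPKM in the EV controls. KO 1 thus kept 15.5% and KO 2 66.2% of the EV control mean, and the difference did not pass the test (limma-trend, log2 difference -1.42, SE 0.57, adjusted p = 0.314). Of 10 colorectal epithelial markers, 6 reached the minimum level, with sums of 3380 to 3758 FPKM in KO and 3409 to 3582 FPKM in EV control libraries, while CDX1 was listed at 0 throughout and CDH17, VIL1 and LGALS4 stayed under 1 FPKM. None of 7 fibroblast and none of 5 endothelial markers reached that level, and of 6 immune markers LYZ alone did, the immune sums being 0.960 to 1.33 FPKM in KO and 1.42 to 1.75 FPKM in EV control libraries. Depth was estimated from the value of a single fragment in genes with a single transcript, which came to about 12.5 to 12.9 M fragments in KO and 12.99 to 13.4 M in EV control libraries (M for mega). On that estimate the lowest library of each member held between 241 (POLE2) and 5508 (MCM7) fragments, a counting error of 6.44% to 1.35% of the value.

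Before a cell copies its DNA, the origin recognition complex and the loaders CDC6 and CDT1 place the MCM2-7 helicase on origins in G1. At the start of S phase CDC45 and the GINS complex join the helicase, and polymerases, clamp and clamp loader follow it along the fork. Many genes of this machinery are switched on late in G1 by E2F transcription factors, and their RNA is highest around the entry into S phase. In bulk RNA, fewer cells in S phase and less RNA per cell cannot be told apart.

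The promoters of the set were examined for E2F words because E2F factors are known to switch on many genes of this machinery. RefSeq windows from 250 bases before to 50 bases after an annotated start (assembly GRCh38.p14) were matched by symbol for 38 of the 44 genes. MCM4, MCM5, GINS4, POLD3, RPA2 and RPA3 had no entry. The words TTTCCCGC, TTTGGCGC, TTTCGCGC and TTTGCCGC, in which a TTT and a CGC flank a pair of G or C bases, were searched on both strands. At least 1 of them was in 21 of 38 members (55.3%), against 6.79% of 9349 tested genes and 3.99% of all 27305 genes with a window. The CCAAT word was in 63.2% of members and 43.4% of tested genes, and the GC box GGGCGG in 76.3% and 78.4%. Stretches that lie wholly before the start are shown for some members, picked under no fixed rule, with E2F words in capitals. GMNN, which stood higher in both KO libraries and held TTTGGCGC at -80, is not shown. Other words of a gene may lie outside its stretch, as TTTCCCGC of MCM7 does at -187. LIG1, RFC3, POLE, UHRF1 and MCM7 stood lower in both KO libraries, PCNA and MCM6 stood on opposite sides in the KO libraries, and E2F1 stood higher in both.
LIG1: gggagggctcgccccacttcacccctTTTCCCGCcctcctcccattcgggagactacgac
RFC3: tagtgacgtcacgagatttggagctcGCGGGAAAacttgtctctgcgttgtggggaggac
POLE: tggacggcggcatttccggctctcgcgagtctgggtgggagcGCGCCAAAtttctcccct
UHRF1: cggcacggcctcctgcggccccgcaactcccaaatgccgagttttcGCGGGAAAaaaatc
MCM7: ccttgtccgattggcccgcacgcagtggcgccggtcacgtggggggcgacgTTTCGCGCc
PCNA: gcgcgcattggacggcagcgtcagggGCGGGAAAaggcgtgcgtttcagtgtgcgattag
MCM6: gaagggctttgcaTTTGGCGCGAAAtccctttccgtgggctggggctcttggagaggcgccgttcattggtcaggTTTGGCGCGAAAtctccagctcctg
E2F1: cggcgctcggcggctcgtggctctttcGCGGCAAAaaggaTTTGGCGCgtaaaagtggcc
ORC6, the member with the smallest p-value, held none of these words, and its stretch is shown with the CCAAT words of both strands in capitals.
ORC6: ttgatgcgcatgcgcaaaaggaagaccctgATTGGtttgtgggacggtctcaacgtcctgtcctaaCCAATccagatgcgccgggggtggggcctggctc
On the plus strand these stretches are chr13:33818068-33818127 (RFC3), chr19:4909441-4909500 (UHRF1) and chr16:46689525-46689624 (ORC6). On the minus strand they are chr19:48170425-48170484 (LIG1), chr12:132687343-132687402 (POLE), chr7:100101398-100101457 (MCM7), chr20:5126648-5126707 (PCNA), chr2:135876509-135876608 (MCM6) and chr20:33686386-33686445 (E2F1). In MCM6 the word TTTGGCGC and, read on the other strand, TTTCGCGC overlap, and this pair of overlapping words occurs at both sites. These matches describe letters and not bound sites.

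No replication gene passed the test, and the KO libraries differed in how far they stood from the EV controls. Of the 44 genes, 22 had both KO libraries below both EV controls, 2 had both above, and 20 overlapped. Across all tested genes 25.6% lay below and 26.5% above in this way. The median log2 difference was -0.12 over the members, against 0.0031 over all tested genes (log2(FPKM + 1), KO minus EV control). No member passed over all tested genes, where 0.0551% were called higher and 0.0551% lower (limma-trend, Benjamini-Hochberg adjusted p under 0.05), the smallest adjusted p being 0.208. At an unadjusted p under 0.05 the fit held 7 members lower and 0 higher, beside 7.22% and 9.23% of all tested genes. With 2 libraries against 2, an exact two-sided permutation test of a single gene cannot go below p = 0.333. The count of 22 became 41 without KO 2, where 42.8% of all tested genes lay below both controls, and the count of 2 became 16 without KO 1, where 45.7% lay above. With the spread of the remaining KO library taken from the EV controls, 12 members passed the adjusted threshold without KO 2, all of them lower (27.3% of members), where 13.2% of all tested genes passed in either direction and 6.94% were lower. Without KO 1, 6 members passed, 3 in each direction (13.6% of members), where 17.5% of all tested genes did, 10.9% higher and 6.62% lower. The 7 at an unadjusted p became 25 without KO 2, beside 17.4% of all tested genes, and 0 without EV control 1 or without EV control 2, beside 1.56% and 1.22%.

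The KO libraries were therefore taken alone, as descriptions with no test. KO 1 lay below both EV controls for 41 of 44 genes and above both for 2, where 42.8% and 41.3% of all tested genes lay. KO 2 lay below both for 22 and above both for 16, where 41.4% and 45.7% of all tested genes lay. Members in KO 1 stood at a median of 85.8% of the EV control mean (range 73.2% to 107%), and in KO 2 at 97.9% (range 79.97% to 137%). KO 2 was the higher KO library for 41 of 44 genes, against 52.1% of all tested genes. EV control 2 was the higher control for 25 of 44, against 50.1%. The median of KO 2 minus KO 1 was 0.19 over the members and 0.012 over all tested genes, whereas EV control 2 minus EV control 1 had a median of 0.011 over the members. Summed over all listed genes, FPKM was lowest in KO 1 (1865290) and highest in KO 2 (2306530), against 2147330 and 1977000 in EV controls 1 and 2. Whether the members differed in this from other genes of like abundance was not tested. With quantile normalization, which gives every library the same distribution, the members' median was -0.17 in KO 1 and -0.079 in KO 2, against -0.007 and -0.017 over all tested genes. For 38 of the 44 the KO libraries differed more from each other than the EV controls did, a count not given over all tested genes. The median absolute gap over the members was 0.19 between KO libraries and 0.048 between EV controls. Over all tested genes it was 0.17 and 0.073, so the wider KO gap was not particular to the members. A total of 13 members lay below both EV controls in KO 1 and above both in KO 2, beside 12.8% of all tested genes.

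**Figure D1:**
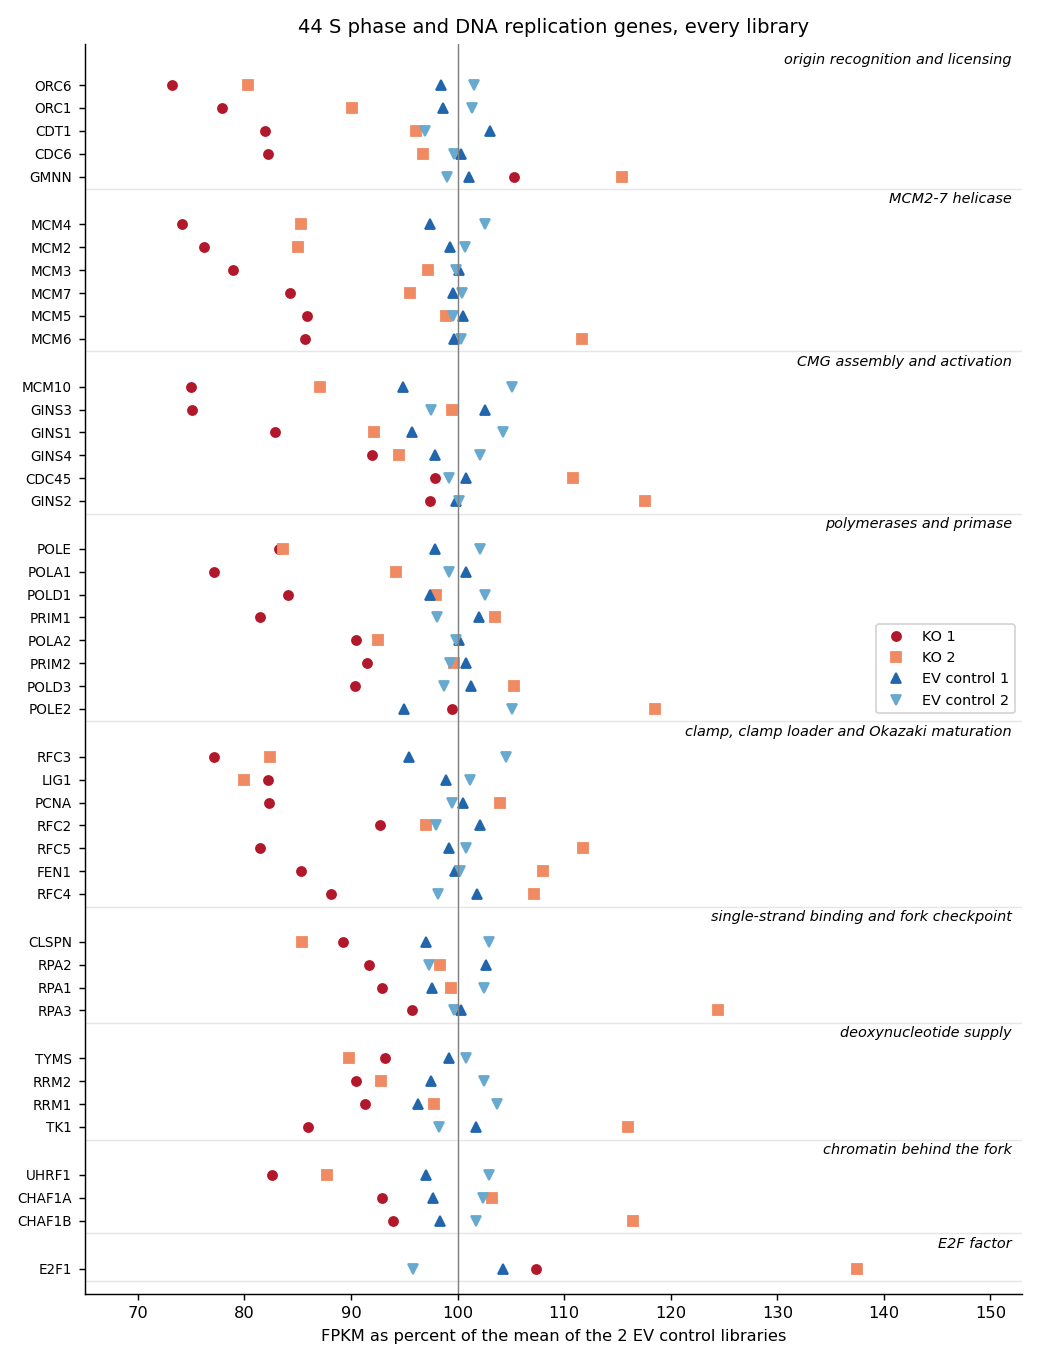
FPKM of each of the 44 genes in every library, as percent of the mean of the 2 EV control libraries, grouped by role (KO 1 circles, KO 2 squares, EV controls triangles). KO 1 lies left of both controls for 41 genes, while KO 2 lies left of both for 22 and right of both for 16.

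**Figure D2:**
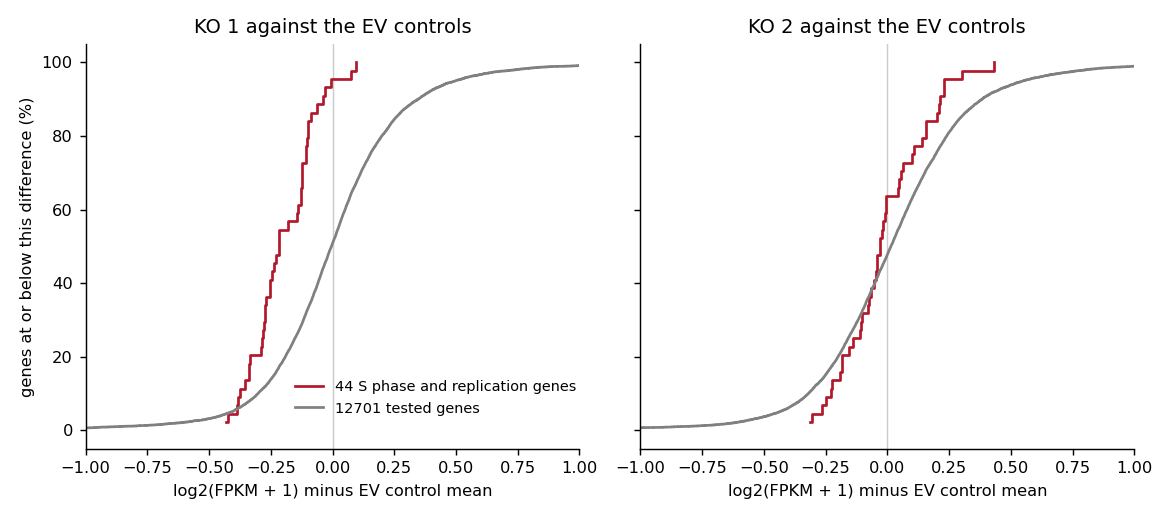
Cumulative share of genes by log2(FPKM + 1) minus the EV control mean, for KO 1 (left panel) and KO 2 (right panel), in the 44 members (red) and 12701 tested genes (grey). The red line is shifted to the left in KO 1, with a median of -0.22, and crosses the grey line in KO 2, with a median of -0.029; tails beyond 1 on either side are not drawn.

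Origin recognition and licensing genes included the member with the smallest p-value. ORC6, a small subunit of the origin recognition complex, had 19.1 FPKM in KO 1 and 20.9 FPKM in KO 2, against 25.7 and 26.5 FPKM in the EV controls. Both KO libraries were below both controls, and the log2 difference was -0.37 (SE 0.085, limma-trend, adjusted p = 0.208). ORC1, the largest subunit of that complex and an ATPase, had 10.3 and 11.9 FPKM in KO cells and 13.04 and 13.4 FPKM in EV control cells. The loaders CDC6 and CDT1 lay below both controls in each KO library as well. KO 1 held them at 82.2% and 81.9% of the EV control mean, and KO 2 at 96.7% and 96.1%. GMNN encodes geminin, the protein that binds CDT1 and blocks further loading, and it stood on the other side. It had 54.3 and 59.5 FPKM in KO cells, against 52.1 and 51.0 FPKM in EV control cells, and its log2 difference was 0.14 (SE 0.084, limma-trend, adjusted p = 0.463). The ratio of GMNN to CDT1, a measure chosen after the values were seen, was 1.91 and 1.79 in KO libraries and 1.46 and 1.52 in EV control libraries.

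The MCM2-7 helicase unwinds the double strand ahead of the fork, and its subunits stand in equal number in the ring. MCM2 had 48.7 FPKM in KO 1 and 54.4 FPKM in KO 2, against 63.5 and 64.4 FPKM in the EV controls. The difference of -0.31 (SE 0.089) did not pass (limma-trend, adjusted p = 0.239). MCM4 had 53.2 and 61.2 FPKM in KO cells, against 69.9 and 73.7 FPKM in EV control cells, again without overlap. MCM7, the most abundant of the ring's RNAs, had 143 and 162 FPKM in KO cells and 169 and 171 FPKM in EV control cells. MCM3 and MCM5 lay below both controls too, but in KO 2 only by a little, at 97.2% and 98.9% of the EV control mean. MCM6 alone of the ring had its KO libraries on opposite sides of the controls, at 40.2 FPKM in KO 1 and 52.4 FPKM in KO 2, against 46.7 and 47.0 FPKM in the EV controls. Summed over the ring, KO 1 held 436 FPKM and KO 2 511 FPKM, against 535 and 540 FPKM in the EV controls, which is 81.1% and 95.1% of the EV control mean. Within the ring's summed FPKM the share of MCM6 was 9.22% and 10.2% in KO libraries and 8.74% and 8.71% in EV control libraries, while that of MCM2 was 11.2% and 10.6%, against 11.9% in each EV control.

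Genes that turn the loaded ring into an active helicase differed among themselves. MCM10, which is needed to start unwinding, had 10.2 and 11.8 FPKM in KO cells, against 12.9 and 14.3 FPKM in EV control cells. GINS1 had 13.2 and 14.7 FPKM in KO cells and 15.3 and 16.6 FPKM in EV control cells, and GINS4 lay below both controls as well. GINS2, the most abundant of the GINS RNAs, had 58.9 FPKM in KO 1 and 71.0 FPKM in KO 2, against 60.3 and 60.5 FPKM in the EV controls. GINS3 had 8.87 FPKM in KO 1 and 11.8 FPKM in KO 2, against 12.1 and 11.5 FPKM, so KO 1 stood apart and KO 2 lay between the controls. CDC45, which joins GINS on the ring, was at 97.8% of the EV control mean in KO 1 and at 111% in KO 2.

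Among polymerases and primase, POLE, the catalytic subunit of the leading-strand polymerase, was the most even between KO libraries. It had 19.2 and 19.3 FPKM in KO cells, against 22.6 and 23.6 FPKM in EV control cells (log2 difference -0.25, SE 0.076, limma-trend, adjusted p = 0.248). POLA1, the catalytic subunit of polymerase alpha, had 8.46 and 10.3 FPKM in KO cells and 11.1 and 10.9 FPKM in EV control cells. Its partner POLA2 lay below both controls at 90.5% and 92.5% of the EV control mean. PRIM1, the primase subunit that makes the RNA primer, had 30.4 FPKM in KO 1 and 38.7 FPKM in KO 2, against 38.1 and 36.6 FPKM in the EV controls. PRIM2, POLD1 and POLD3 had KO 1 below both controls and KO 2 within or above them. POLE2, an accessory subunit of the leading-strand polymerase and the 1 member on chromosome 14, which also carries C14orf159, had 10.9 and 12.9 FPKM in KO cells and 10.4 and 11.5 FPKM in EV control cells.

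The sliding clamp, its loader and the enzymes that mature Okazaki fragments held members that were even between KO libraries and members that were divided. LIG1, the ligase that joins these fragments, had 25.6 and 24.9 FPKM in KO cells, against 30.8 and 31.5 FPKM in EV control cells. The log2 difference was -0.29 (SE 0.075, limma-trend, adjusted p = 0.214), and the KO libraries differed from each other by only -0.038. RFC3, a clamp loader subunit, had 16.3 and 17.4 FPKM in KO cells and 20.2 and 22.1 FPKM in EV control cells (log2 difference -0.31, SE 0.089, limma-trend, adjusted p = 0.240). RFC2 lay below both controls by little. PCNA, the clamp itself and the most abundant member, had 192 FPKM in KO 1 and 243 FPKM in KO 2, against 235 and 232 FPKM in the EV controls. RFC5, another loader subunit, showed the widest gap between KO libraries, 0.45 on the log2(FPKM + 1) scale. It stood at 36.8 FPKM in KO 1 and 50.4 FPKM in KO 2, against 44.8 and 45.5 FPKM in the EV controls. FEN1, the nuclease that trims flaps from Okazaki fragments, had 64.3 FPKM in KO 1 and 81.4 FPKM in KO 2, against 75.2 and 75.6 FPKM, and RFC4 was divided in the same way.

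RPA coats single-stranded DNA, and CLSPN passes the stalled-fork signal on to CHEK1. CLSPN had 5.30 and 5.08 FPKM in KO cells, against 5.77 and 6.11 FPKM in EV control cells, and was 1 of 3 members, with LIG1 and TYMS, in which KO 2 was the lower KO library. RPA2 had 48.8 and 52.4 FPKM in KO cells and 54.7 and 51.8 FPKM in EV control cells, and RPA1 overlapped in the same manner. RPA3, the smallest subunit, had 23.1 FPKM in KO 1 and 30.0 FPKM in KO 2, against 24.2 and 24.0 FPKM in the EV controls.

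Deoxynucleotide supply differed little except for TK1. TK1, the thymidine kinase of the salvage pathway, had 149 FPKM in KO 1 and 202 FPKM in KO 2, against 177 and 171 FPKM in the EV controls, so that its mean difference was -0.0017. TYMS, which makes thymidylate, had 93.2% and 89.8% of the EV control mean in KO 1 and KO 2, and RRM2, the regulated subunit of ribonucleotide reductase, 90.4% and 92.8%. Both lay below both controls, while RRM1, the larger subunit, overlapped with KO 2 between the controls. Of the genes that rebuild chromatin behind the fork, UHRF1, which reads half-methylated DNA and brings in the maintenance methyltransferase, had 38.9 and 41.4 FPKM in KO cells and 45.7 and 48.6 FPKM in EV control cells. CHAF1A and CHAF1B, subunits of the histone chaperone CAF-1, had KO 1 below both controls and KO 2 above both, at 103% and 116% of the EV control mean.

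E2F1, a transcription factor that activates many of these genes, was with GMNN the other member above both controls. It had 14.1 FPKM in KO 1 and 18.1 FPKM in KO 2, against 13.7 and 12.6 FPKM in the EV controls. The log2 difference was 0.26 (SE 0.14, limma-trend, adjusted p = 0.399). The 21 members with an E2F word in a promoter window had a median of -0.25 in KO 1 and -0.066 in KO 2, and the 17 without had -0.18 and -0.0049. Of those with a word 14 lay below both controls in both KO libraries and 2 above, and of those without 5 and 0 (log2(FPKM + 1) against the EV control mean, given as a description). Across all tested genes 25.6% lay below and 26.5% above in this way. Shares among all tested genes with an E2F word are not given here, and the difference between members with and without a word was not tested.

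Transcript length moved with the values of KO 2. Over 12016 tested genes with a GENCODE transcript, the rank correlation of length with the KO 2 difference was -0.32, against -0.015 with that of KO 1 (Spearman, across genes of the same libraries). With genes in 5 bins of equal size by length, in the shortest bin, up to 1847 nt, the median difference of all genes was 0.15 in KO 2 and -0.0043 in KO 1, and in the longest bin, over 5563 nt, -0.11 in KO 2 and -0.013 in KO 1. Length also went with EV control 2 minus EV control 1, at 0.26. Over the 44 members the rank correlation with length was -0.44 in KO 2 and -0.21 in KO 1, and 0.44 with EV control 2 minus EV control 1. The GC content of the transcript had a rank correlation of 0.31 with the KO 2 difference and 0.029 with that of KO 1 over the same 12016 genes. Over the members these were -0.031 and 0.088. Of the 19 members in the 2 shortest bins (10 and 9), 6 and 6 lay above both controls in KO 2, and of the 25 in the 3 longest bins (14, 10 and 1), 3, 1 and 0 did. Over all tested genes of any length 45.7% did. Shares of all genes by bin are not given here, so these counts cannot be read as particular to the members. After a lowess correction for length and GC content, added after the data were seen, the members' median was -0.22 in KO 1 and -0.053 in KO 2. With that correction 25 members lay below both controls and 2 above, and KO 2 was the higher KO library for 41. The members' median of KO 2 minus KO 1 was 0.15 with it and 0.19 without it. Shares of all tested genes with the correction are not given here. Without it 25.6% lay below and 26.5% above, and KO 2 was the higher KO library for 52.1%. Exons of 12 members overlap another listed gene, and 7 members, among them PCNA, FEN1, RFC3, RFC5 and RRM2, have a named pseudogene. Reads of these 16 members in all may be shared. CHAF1B, FEN1 and PRIM1 overlap a gene on the same strand, and for overlaps on opposite strands no source used here gives the use of strand in counting.

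**Figure D3:**
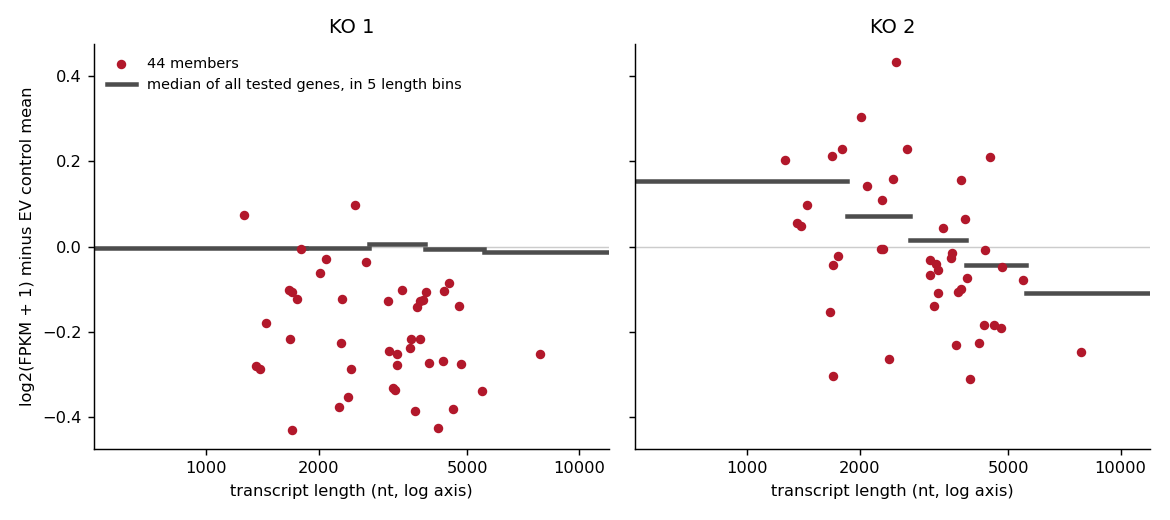
Log2(FPKM + 1) minus the EV control mean of the 44 members (points) by length of the longest coding transcript (log axis), for KO 1 (left) and KO 2 (right); bars are medians of all tested genes in 5 bins of equal size by length, drawn within the axis limits only. The bars are level in KO 1 and step down from 0.15 to -0.11 in KO 2.

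Other genes of the same process were compared in lists put together by function. For every list, the counts are to be read beside the shares of all tested genes. Of these, 25.6% lay below both controls in both KO libraries and 26.5% above. At an unadjusted p under 0.05, 7.22% were lower and 9.23% higher (limma-trend). Of 30 other fork and origin factors, 13 lay below both controls in both KO libraries and 2 above, with a median of -0.20 in KO 1 and -0.052 in KO 2. At an unadjusted p under 0.05, 5 were lower and 1 higher (limma-trend), and none passed over all genes (smallest adjusted p = 0.155). ORC3, a core subunit of the origin recognition complex, had 15.4 and 16.0 FPKM in KO cells, against 22.5 and 24.4 FPKM in EV control cells. RIF1, which controls the timing of origin firing, had 6.55 and 5.60 FPKM in KO cells and 9.77 and 10.4 FPKM in EV control cells. POLD4, the smallest subunit of the lagging-strand polymerase, stood the other way at 17.9 and 20.7 FPKM in KO cells, against 13.8 and 12.9 FPKM in EV control cells, and POLE3 had 39.4 and 42.7 FPKM, against 50.9 and 52.2 FPKM.

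Of 23 other S phase and E2F target genes, 10 lay below both controls and 1 above, with medians of -0.21 in KO 1 and -0.062 in KO 2. CCNA2, the S phase cyclin, had 36.3 and 34.9 FPKM in KO cells and 41.2 and 44.9 FPKM in EV control cells. DTL, which targets CDT1 for destruction, had 81.7% and 83.6% of the EV control mean in KO 1 and KO 2, and CDC25A, a phosphatase that activates CDK2, 85.4% and 85.6%. At an unadjusted p under 0.05 the list held 3 genes lower, among them CCNA2 and DTL but not CDC25A, and 0 higher (limma-trend), and none passed over all genes.

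Of 11 E2F and pocket protein genes, 3 lay below both controls and 2 above, beside 25.6% and 26.5% of all tested genes. TFDP2, a dimer partner of E2F proteins, had 10.4 and 9.48 FPKM in KO cells, against 8.26 and 8.07 FPKM in EV control cells, while E2F3, another activating E2F, had 15.1 and 14.6 FPKM, against 16.8 and 17.8 FPKM. E2F6 had 13.7 and 15.9 FPKM, against 13.03 and 12.7 FPKM, and RBL1, the p107 gene, 2.12 and 3.58 FPKM, against 3.53 and 4.23 FPKM. Of 9 replication checkpoint genes 4 lay below and 1 above both controls. ATR, the kinase that answers stalled forks, had 5.18 and 6.16 FPKM in KO cells, against 6.88 and 7.58 FPKM in EV control cells, and its partner ATRIP had 79.3% and 82.3% of the EV control mean in KO 1 and KO 2. WEE1, the kinase that restrains CDK1, had 79.1% and 83.6%, and RAD9A, part of the checkpoint clamp, 123% and 126%. Neither list had a gene past the adjusted threshold (limma-trend, smallest adjusted p = 0.283 and 0.230), and at an unadjusted p under 0.05 they held 1 lower and 1 higher, and 3 lower and 1 higher.

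Of 21 other nucleotide synthesis genes, 4 lay below both controls and 3 above, beside 25.6% and 26.5% of all tested genes. Their medians were -0.098 in KO 1 and 0.037 in KO 2. GMPS, which makes GMP, had 43.4 and 50.5 FPKM in KO cells, against 32.3 and 32.1 FPKM in EV control cells (limma-trend, adjusted p = 0.183), and GART of purine synthesis 111.6% and 129.5% of the EV control mean in KO 1 and KO 2. CAD, which opens pyrimidine synthesis, had 65.8% and 79.2%, and the folate enzyme gene MTHFD1 83.7% and 88.6%. At an unadjusted p under 0.05 this list held 2 lower and 1 higher, and none passed over all genes. The 12 G2/M genes taken for comparison had medians of -0.21 in KO 1 and -0.16 in KO 2, and 10 of them lay below both controls. PLK1, a mitotic kinase gene, had 78.3% and 81.5% of the EV control mean in KO 1 and KO 2, KIF11 79.7% and 78.9%, MKI67 82.8% and 81.1%, and TOP2A 82.0% and 82.2%. In this list 5 genes were lower and 0 higher at an unadjusted p under 0.05, and none passed over all genes (limma-trend, smallest adjusted p = 0.208). KO 2 was the higher KO library for 8 of these 12, against 41 of 44 members, and the difference between the lists was not tested.

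**Figure D4:**
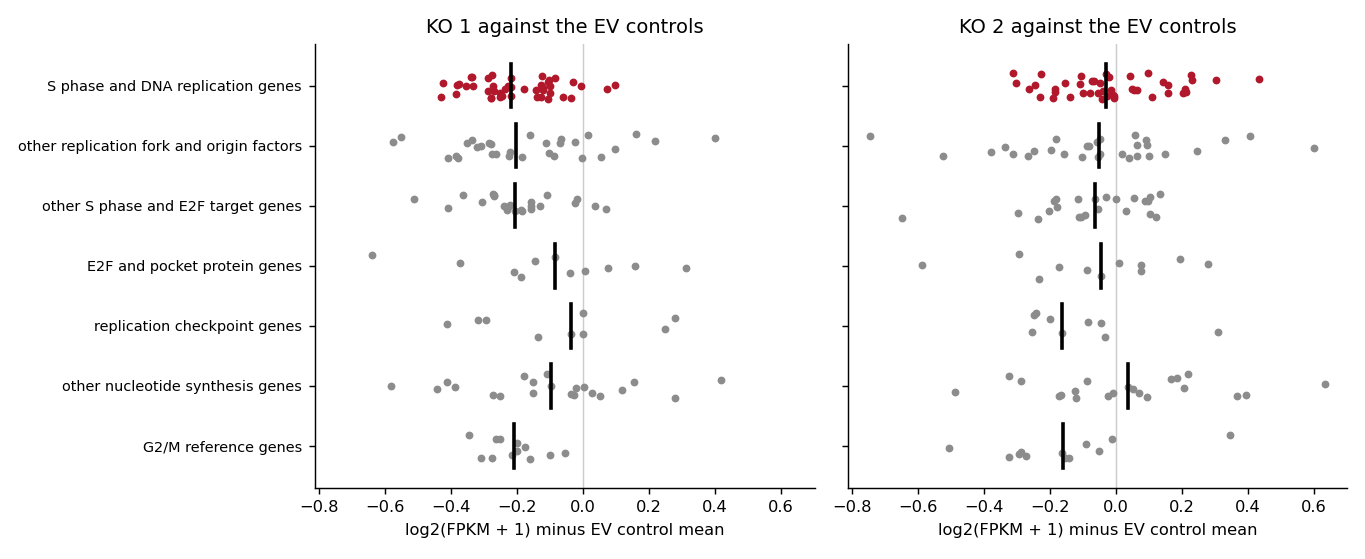
Log2(FPKM + 1) minus the EV control mean in KO 1 (left) and KO 2 (right) for the 44 members (red) and the other lists (grey); points are genes and black bars are medians. The members' bar lies at -0.22 in KO 1 and -0.029 in KO 2, and that of the G2/M genes at -0.21 and -0.16.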

How the data were processed

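Libraries were made from total RNA with a TruSeq stranded mRNA kit, per the labels' protocols. Each deposited file holds the FPKM of 1 library by gene symbol. Cuffnorm 2.2.1, SAMtools 0.1.19, TopHat2 2.0.13 and Bowtie2 2.2.3 were used with build hg19, per the submitters' processing notes. No source used here gives the annotation, the use of strand or how libraries were scaled. Values were transformed to log2(FPKM + 1), which understates changes of low genes, filtered as stated and fitted with limma 3.58.1 (trend) in R 4.3.3, with group as the sole term and adjustment over all 12701 genes. Transcript lengths are those of the longest coding transcript in GENCODE release 29, and promoter windows are RefSeq's. Depth was estimated from FPKM times length in kb between 0.06 and 0.1 in 2008 genes with a single transcript of 1000 to 6000 nt, so it is rough. Values in every library were given for 12 members with the smallest p, 6 with the widest gap between KO libraries and the most abundant of each role, 24 in all, and for up to 4 genes per other list, 1 of which is not reported here; CLSPN and POLE2 were added after their values were seen. Members and lists were chosen with earlier results of these data known. Alternatives were pseudocounts of 0.1 and 0.5, other filters and scalings, no trend, a replicate block, leaving out each library, and the added length and GC correction.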

Additional observations from a re-analysis of the deposited data

How the results depend on the processing

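All 44 members stayed in every fit, and none passed the adjusted threshold in any fit that kept all 4 libraries. In the main fit the smallest adjusted p was 0.208, that of ORC6, and with the length and GC correction ORC6 had 0.1475 (limma-trend). Leaving out a library gave 0 to 12 members past it, 0 to 25 lower at an unadjusted p under 0.05, 22 to 41 lower and 2 to 16 higher without overlap, and medians from -0.22 to -0.029. For all genes it gave 6 to 1381 higher and 5 to 881 lower, with 1381 and 841 without KO 1 and 799 and 881 without KO 2. The members' counts without overlap are to be read beside the shares of all tested genes. Without KO 2, 42.8% of these lay below both controls and 41.3% above. Without KO 1, 41.4% lay below and 45.7% above. Shares without overlap are not given here for the settings that left out an EV control. The members' counts in those settings thus cannot be read as particular to the members. Over all genes, the higher count of 7 was 3 with no filter, 3 without the trend and 4 with a replicate block, and the lower count of 7 was 3 with no filter and 4 with quantile normalization. With quantile normalization the median of KO 2 minus KO 1 was 0.12, and 34 members were higher in KO 2. The labels number the replicates and name no pairing, and the correlation of same-numbered deviations across genes was -0.00455. This single value cannot show whether same-numbered libraries were prepared together. With the replicate block 5 members were lower at an unadjusted p under 0.05 (limma-trend). The share of all tested genes in that fit is not given here, so the count cannot be read as particular to the members.

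Leaving out a library moved list medians over -0.20 to -0.052 (other fork and origin factors), -0.21 to -0.062 (other S phase and E2F targets), -0.12 to -0.046 (E2F and pocket proteins), -0.16 to -0.035 (checkpoint) and -0.098 to 0.037 (nucleotide synthesis). The E2F and pocket median was also -0.14 with a pseudocount of 0.1, -0.11 with a filter at 5 FPKM and -0.15 with the length and GC correction. Of 24 named members 16 kept their sign in all 13 settings. The other 8 changed it only when a library was left out: MCM6 ran from -0.22 to 0.16, GINS2 from -0.037 to 0.23, PCNA from -0.28 to 0.056, RFC5 from -0.29 to 0.16, FEN1 from -0.23 to 0.11, PRIM1 from -0.29 to 0.049, RPA3 from -0.061 to 0.30 and TK1 from -0.22 to 0.21. The cause was not tested.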
